A study of Sus scrofa with 3 samples.

Results

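The actins ACTC1, ACTA2, ACTG2 and ACTB and the actin-severing proteins SCIN and GSN were read in the developing molar of the miniature pig. Their probe sets are those whose only gene symbol in the platform annotation is that of 1 of these 6 genes. They number 10 of the 23999 probe sets analysed, and the genes 6 of the 6765 named. ACTG2, ACTB, SCIN and GSN have a pair of probe sets each, and ACTC1 and ACTA2 have 1 each. The tissue is the germ of the last deciduous molar in the lower jaw of Wuzhishan miniature pigs, dissected together with its dental lamina. At E40 the germ was a cap without a secondary lamina, at E50 a bell with the secondary lamina starting, and at E60 it had reached the secretory stage by the labels, or the late bell stage by the methods. The germs of a litter were pooled for each day, no animal was treated, and 1 array was hybridised for each of the 3 days. There are thus no replicates, the spread between animals is unknown, and no p-value is given: each difference is between the arrays of 3 pools.

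Actin monomers assemble into filaments that carry contraction in muscle and give shape, adhesion and movement to every other cell. The vertebrate isoforms are nearly identical proteins from separate genes, and they differ in where they are made. ACTC1 is the actin of the heart and of fetal skeletal muscle, ACTA2 and ACTG2 are the actins of vascular and of visceral smooth muscle, and ACTB is a cytoplasmic actin of nearly all cells. SCIN (scinderin, also called adseverin) and GSN (gelsolin) belong to 1 family and cut and cap filaments when calcium rises.

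All values are MAS 5.0 signals, a measure of the brightness of a probe set that takes its mismatch probes into account. Signals of genes were compared between days within a probe set, not between probe sets. Values below the 25th percentile of an array (29.3 at E40, 17.2 at E50 and 21.8 at E60) were set to that percentile, called the floor, and a fold against such a value is written "at least". A difference past 2-fold was called higher or lower. The pairs of days are named the first step (E50 versus E40), the second step (E60 versus E50) and the whole span (E60 versus E40), with the later day on top of each fold. Of the 10 probe sets, 9 lay above the floor on all 3 arrays, and 1, the dimmer probe set of SCIN, lay below it at E40. As a measure of precision within the table, the 2 brightest probe sets of a gene differed in their log2 difference with an SD of 0.69 over the first step (1596 genes), 0.56 over the second (1625 genes) and 0.63 over the whole span (1596 genes). This SD holds the differences between probes but not those between animals. It also leaves out any error of a pool or an array that both probe sets share.

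The 6 genes did not move as a group. Over the first step 3 of the 10 probe sets were higher (both of SCIN and the brighter of ACTG2) and 3 were lower (those of ACTC1 and ACTA2 and the dimmer of GSN), where 1.99% of all 23999 probe sets were higher and 11.9% lower. Over the second step 1 was higher (the dimmer of GSN) and 1 lower (ACTC1), against 4.93% higher and 1.45% lower among all. Over the whole span 4 were higher (both of SCIN and both of ACTG2) and 2 lower (ACTC1 and the dimmer of GSN), against 3.5% higher and 9.76% lower among all. Their median log2 difference was -0.04, 0.17 and 0.21 in these pairs, where the median of all probe sets with a value was -0.11, 0.02 and -0.11. The genes were chosen with earlier results of these arrays known, so the counts describe them and do not set them apart.

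**Figure D1:**
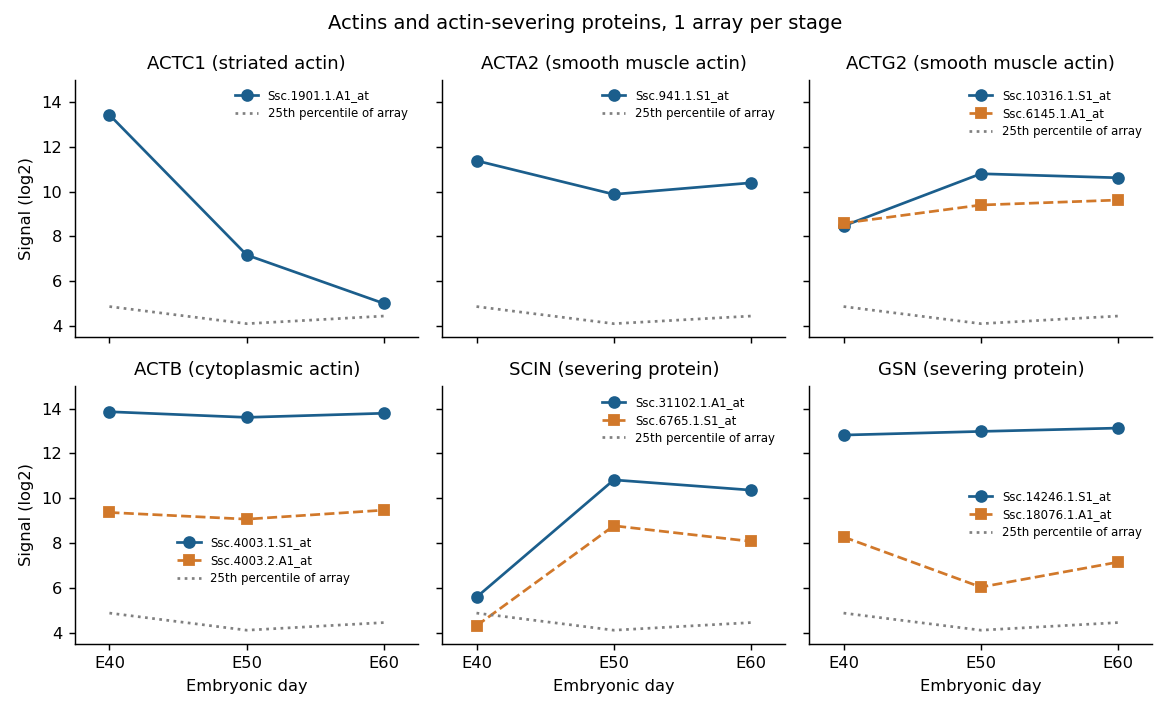
Log2 signal (vertical axis) by embryonic day (horizontal axis, 1 array for each of E40, E50 and E60) for every probe set of the 6 genes, with a line per probe set and the 25th percentile of each array dotted. ACTC1 drops at E50 and again at E60, SCIN climbs at E50 on both probe sets, both lines of ACTB are nearly level, and the lines of GSN part.

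ACTC1, the striated muscle actin of the fetus, was read by 1 probe set with a signal of 11061.3 at E40, 144.5 at E50 and 32.2 at E60. It was highest at E40 and still above the floor at E60. The signal was 76.6-fold lower over the first step (log2 difference -6.26), 4.49-fold lower over the second (-2.17) and 344-fold lower over the whole span (-8.43). Of the 16888 probe sets above the floor at both ends of the whole span, 0 had a smaller value. The first step had 9 of 16866 with a smaller value, and the second 7 of 17019. These ranks leave out probe sets under the floor on 1 day. Among those left out, TTN (titin) was at least 181-fold lower over the first step, past ACTC1. Over the whole span TNNC1, NEB and TTN, each under the floor at E60, were at least 163-fold, 160-fold and 143-fold lower. Each log2 difference of ACTC1 exceeds the SD between probe sets of a gene more than 3-fold. The second step rests on a signal close to the floor: with the floor at the 50th percentile of each array, its log2 difference was -0.13.

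Other genes of striated muscle were lower with ACTC1. Of 24 named genes of that list, 23 had a value over the first step, and 23 were lower and 0 higher, with a median log2 difference of -5.19. Among all named genes, 7.3% were lower and 2.5% higher over this step, with a median of 0.06. The summed signal of the list was 53181 at E40, 1329 at E50 and 4203 at E60, and without MYL1, a fast myosin light chain, it was 46065, 848 and 937. Largest among the changes with both signals above the floor were those of NEB, the giant ruler protein nebulin (150-fold lower), MYLPF, a fast myosin light chain (144-fold), TNNI1, the slow troponin inhibitor (124-fold), and MYL2, a ventricular and slow myosin light chain (104-fold). The myogenic factors MYOD1 (237.9, 2.0 and 14.0 at E40, E50 and E60) and MYF5 (133.2, 2.3 and 1.7), chosen after their values were seen, were under the floor at E50 and E60. Over the whole span 22 of 23 were lower and 1 higher (median -4.90), against 6.61% lower and 4.07% higher among all named genes (median 0.00).

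Over the second step 3 of 15 genes with a value were higher and 1 lower (median -0.10), where 3.99% of all named genes were higher and 1.6% lower (median -0.04). The higher ones were CHRNA1, a subunit of the acetylcholine receptor (228.4 at E60, against 28.5 at E50), MYL1 (6.79-fold), and DES, desmin (2.46-fold), and the lower one was TNNI2, the fast troponin inhibitor (2.09-fold). After quantile normalization 2 were higher and 3 lower. MYL1 read 7116.4 at E40, 481.2 at E50 and 3266.3 at E60, and was higher at E60 than at E50, where ACTC1 was lower. In pooled tissue, fewer muscle cells and less of an RNA in each muscle cell cannot be told apart, and the part of muscle dissected with the germ was not tested.

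The 3 genes most like ACTC1 in profile were also of the contractile apparatus. Likeness was measured as the Euclidean distance between log2 profiles centred on their own mean, over 3 arrays and 6268 candidate genes, each with its brightest probe set. They were TNNC1, the calcium-binding troponin of slow and heart muscle (distance 1.04), MYL2 (1.18), and MYL4, an atrial and embryonic myosin light chain (1.30). The signal of TNNC1 was 3557.5 at E40, 36.7 at E50 and 17.6 at E60, the last of these under the floor. No candidate lay within 0.5 of ACTC1. Of 5 named markers of heart muscle, 2 had a value over the first step and 0 of these were called. TNNI3, the heart troponin inhibitor, read 237.9 at E40, 223.9 at E50 and 192.2 at E60, and PLN and GATA4 were under the floor on every array (these 3 were chosen after their values were seen). NPPA, an atrial hormone, read 3.9, 3.8 and 35.0 on the 3 days, under the floor at E40 and E50. It was the 1 gene of that list called over the second step, at least 2.03-fold higher. At equal medians and after quantile normalization, 0 genes of the list were higher over that step. The shares of all named genes were 2.5% higher and 7.3% lower over the first step, and 3.99% and 1.6% over the second.

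ACTA2, the alpha actin of vascular smooth muscle and of contractile fibroblasts, had a signal of 2673.8 at E40, 944.4 at E50 and 1347.5 at E60 on its probe set. It was highest at E40 and lowest at E50. It was 2.83-fold lower over the first step (log2 difference -1.50). Over the second it was 1.43-fold higher (0.51), a difference under the SD between probe sets. From end to end of the span it was 1.98-fold lower (-0.99), just within the 2-fold limit, and after quantile normalization of the arrays the value was -1.05, just past it. In the embryo ACTA2 is also made for a time by developing striated muscle. The markers of that muscle were lower over the same first step, and their part in the values of ACTA2 was not tested.

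ACTG2, the gamma actin of visceral smooth muscle, ran the other way. Its brighter probe set read 354.5 at E40, 1785.5 at E50 and 1576.1 at E60. The dimmer read 386.6 at E40, 678.2 at E50 and 791.1 at E60. Both were lowest at E40. The brighter was 5.04-fold higher over the first step (2.33) and the dimmer 1.75-fold higher (0.81), the second within the 2-fold limit. Over the second they were 1.13-fold lower (-0.18) and 1.17-fold higher (0.22), both under the SD between probe sets. Both passed the limit over the whole span, with 4.45-fold (2.15) and 2.05-fold (1.03). The probe sets thus shared the direction against E40 but not the size, and they parted by 1.52 log2 units over the first step, more than 2 SD. With the arrays scaled to equal medians the dimmer probe set passed the limit over the first step too (1.20).

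On its brighter probe set, 15 of the 6268 candidates lay within 0.5 of ACTG2. Nearest were HSD11B2, the enzyme that inactivates cortisol (distance 0.15), HEY2, a transcription factor induced by Notch (0.16), and ANPEP, a membrane aminopeptidase (0.26). HEY2 read 331.3 at E40, 1428.9 at E50 and 1310.9 at E60, and HSD11B2 147.7, 734.8 and 573.3. Both were picked as nearest to the brighter probe set, so their low at E40 follows from the choice.

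Of 12 named markers of smooth muscle and pericytes, 11 had a value over the first step. Of these, 1 was higher and 1 lower, with a median of 0.34, against 2.5% higher and 7.3% lower among all named genes. These counts moved with the scaling: 4 were higher and 1 lower at equal medians, 5 higher and 0 lower after quantile normalization, and 0 higher and 1 lower when scaled to housekeeping genes. TAGLN, the actin-binding transgelin of smooth muscle, read 1563.5 at E40, 3215.4 at E50 and 2716.9 at E60, and was the higher one (2.06-fold). The lower one was CASQ2, a calcium store protein that heart and slow skeletal muscle also make (45.7, 1.0 and 20.3, at least 2.65-fold lower at E50). MYL9, the regulatory light chain of smooth muscle myosin, read 432.1, 834.9 and 727.1, and CNN1, calponin, 130.1, 211.2 and 195.4, both within the limit in every pair. SMTN (1338.9, 949.8 and 1382.3) and PDGFRB (2835.5, 1758.1 and 1865.6) went the other way over the first step, also within the limit in every pair. Over the second step 1 of 10 was higher (median -0.01), RGS5, a pericyte gene (554.1, 698.0 and 1631.5, 2.34-fold). Over the whole span 2 of 11 were higher, RGS5 (2.94-fold) and the integrin chain ITGA8 (2.51-fold), and 2 were lower, the filament protein SYNM (2.16-fold) and CASQ2 (at least 2.10-fold), with a median of 0.59. At equal medians 5 were higher and 0 lower over the whole span, and after quantile normalization 3 and 0. Among all named genes 3.99% were higher and 1.6% lower over the second step, and 4.07% and 6.61% over the whole span. The summed signal of the list was 7298 at E40, 8034 at E50 and 8939 at E60, and MYLK, the kinase of smooth muscle myosin, was under the floor on every array (2.9, 1.8 and 2.7). MYL9, CNN1, SMTN, PDGFRB and MYLK were chosen after their values were seen.

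Endothelial cells line the vessels that ACTA2 cells surround. Of 9 endothelial markers with a value over the first step, 3 were lower (CDH5, TEK and TIE1, between 2.13-fold and 2.67-fold) and 0 higher, with a median of -0.97. Among all named genes 7.3% were lower and 2.5% higher. The lower endothelial markers numbered 1 at equal medians, 1 after quantile normalization and 5 when scaled to housekeeping genes. Over the second step, 3.99% of all named genes were higher and 1.6% lower. Of the endothelial markers, 1 of 9 was higher (TEK, 2.77-fold) and 0 lower, with a median of 0.38. Their summed signal was 3437 at E40, 1984 at E50 and 2936 at E60, lowest on the day ACTA2 was, while ENG, endoglin, chosen after its values were seen, read 166.5, 173.5 and 128.1. The part of vessels in the values of ACTA2 was not tested.

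ACTB, the beta cytoplasmic actin, was nearly level. Its brighter probe set read 14887.6 at E40, 12513.3 at E50 and 14204.1 at E60. The dimmer read 659.0 at E40, 535.9 at E50 and 708.3 at E60. Both were lowest at E50. They were 1.19-fold and 1.23-fold lower over the first step (-0.25 and -0.30), but with the arrays at equal medians both signs turned (0.14 and 0.09). Over the second they were 1.14-fold and 1.32-fold higher (0.18 and 0.40). The log2 differences over the whole span were -0.07 and 0.10, and the first of these also turned at equal medians (0.24). Every difference of ACTB on the deposited scale was smaller than the SD between probe sets of a gene, and the profile was common, with 3756 candidates within 0.5 of it.

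**Figure D2:**
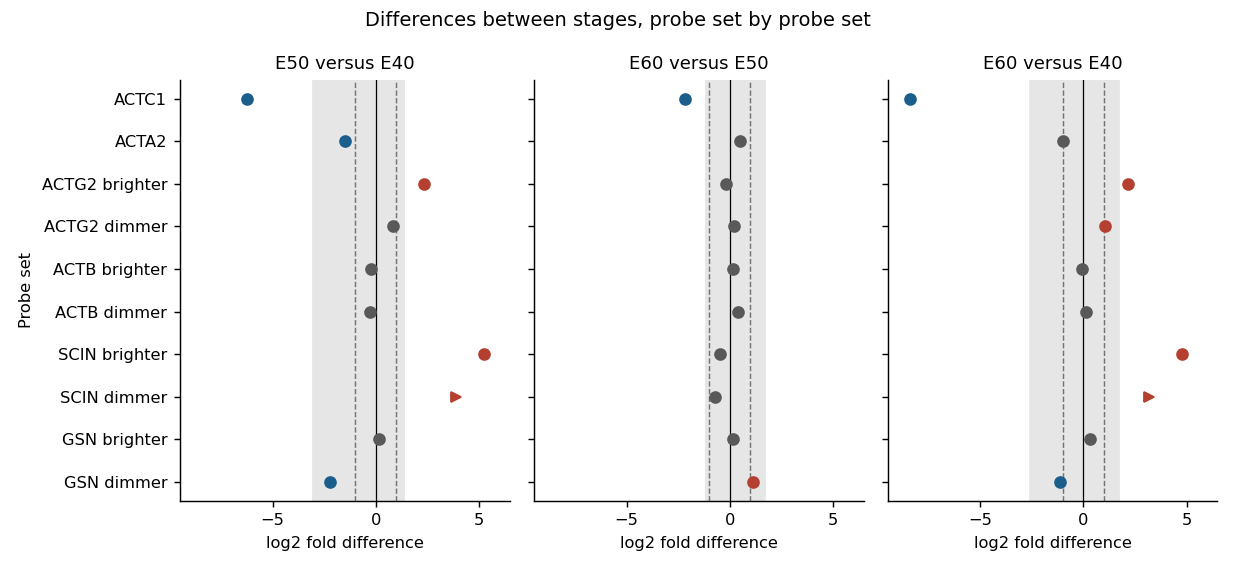
Log2 fold difference (horizontal axis, later over earlier day) of each probe set (rows) in the 3 pairs of days (panels). Red points were called higher, blue lower and dark grey within 2-fold, triangles are lower bounds, dashed lines mark 2-fold, and the pale band runs over the values of every probe set that lay above the floor at both days, but for the outermost 1% on each side. ACTC1 lies left of the band in every panel, and both probe sets of SCIN lie right of it in the panels of E50 versus E40 and E60 versus E40.

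SCIN showed the largest gain of the 6 genes. Its brighter probe set read 47.8 at E40, 1805.5 at E50 and 1317.2 at E60. The dimmer read 19.8 at E40, under the floor, 436.5 at E50 and 269.3 at E60. Both were lowest at E40 and highest at E50. The brighter was 37.7-fold higher over the first step (5.24), and the dimmer at least 14.9-fold higher (3.90). They were 27.5-fold (4.78) and at least 9.20-fold higher over the whole span. Of the probe sets above the floor on both days, 1 of 16866 passed the brighter over the first step. Over the whole span 5 of 16888 did. These ranks leave out probe sets under the floor on 1 day. Among those left out, AMELX was at least 75.8-fold higher over the first step. Over the whole span AMELX, ENAM and DSPP, each under the floor at E40, were at least 577-fold, 238-fold and 143-fold higher. Between E50 and E60 the brighter and the dimmer probe set of SCIN were 1.37-fold and 1.62-fold lower at E60 (-0.45 and -0.70), within the 2-fold limit. The first difference was under the SD between probe sets and the second above it. With the floor at the 50th percentile, the dimmer probe set was no longer called over the whole span (0.72), and the brighter kept a log2 difference of 3.01.

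Over the first step 2.5% of all named genes were higher and 7.3% lower. Of 4 markers of ameloblasts and enamel epithelium with a value, 3 were higher and 1 lower (median 3.74). The higher ones were the enamel matrix proteins AMBN (44.7-fold) and AMELX (at least 75.8-fold) and the enamel protease MMP20 (4.01-fold), and the lower one was KLK4, a protease of enamel maturation (at least 4.36-fold). AMELX was chosen after its values were seen. Over the second step 4 of 4 were higher (median 4.08), ENAM, another enamel matrix protein, by 267-fold and AMBN by 11.2-fold, while SCIN was within the limit on both probe sets. ENAM had no fold over the first step, as its E40 signal, once raised to the floor, passed that of E50. KLK4 had none over the second, with both signals under the floor. The summed signal of the 5 named genes was 223 at E40, 5143 at E50 and 59209 at E60. Of 7 general epithelium markers, 1 was higher over the first step, KRT18, a simple epithelium keratin (2.72-fold), and 0 lower (median 0.59), and their summed signal was 42345 at E40, 45033 at E50 and 42103 at E60. At equal medians 3 of them were higher and 0 lower over the first step. After quantile normalization, and also when scaled to housekeeping genes, 1 was higher and 1 lower.

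The genes most like SCIN in profile were GNRH1, the gonadotropin-releasing hormone (distance 1.04), CBR1, a carbonyl reductase (1.27), and TRH, the thyrotropin-releasing hormone (1.37). CBR1 read 30.6 at E40, 369.7 at E50 and 311.1 at E60, and TRH 59.5, 943.2 and 435.1. GNRH1 was under the floor at E40 and brighter at E60 than at E50 (19.6, 750.7 and 1506.2), whereas SCIN was not. No candidate lay within 0.5 of SCIN.

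GSN, gelsolin, gave a different account on each of its probe sets. The brighter read 7238.7 at E40, 8099.1 at E50 and 8981.2 at E60. The dimmer read 308.8 at E40, 65.4 at E50 and 141.8 at E60. The brighter was lowest at E40 and the dimmer lowest at E50. The brighter stayed within the limit, 1.12-fold higher over the first step (0.16), 1.11-fold over the second (0.15) and 1.24-fold over the whole span (0.31). The dimmer was 4.72-fold lower over the first step (-2.24), 2.17-fold higher over the second (1.12) and 2.18-fold lower over the whole span (-1.12). The gap of 2.40 log2 units between the probe sets over the first step is over 3 SD. Both carry the symbol through 1 gene ID of the platform annotation that the newer gene table used here does not hold, whereas the other 8 probe sets matched their symbol in it. After quantile normalization the dimmer probe set was within the limit over the second step (0.93) and over the whole span (-0.93). No single level for the gene was derived.

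Of the other members of the gelsolin family, 2 of 6 listed were named on the array and 0 were called in any pair on the deposited scale. At equal medians 1 was higher over the first step. The shares of all named genes were 2.5% higher and 7.3% lower over the first step, and 3.99% and 1.6% over the second. Over the whole span they were 4.07% and 6.61%. CAPG, which caps filaments without cutting them, read 1353.6 at E40, 2198.9 at E50 and 1581.5 at E60. VIL1, villin of the microvillus, read 18.5, 23.2 and 16.8 and was under the floor at E40 and E60. It had no fold over the first step or over the whole span.

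ACTG1, the gamma cytoplasmic actin, is not among the 6 genes but is the closest relative of ACTB, and its probe sets, chosen after their values were seen, show how far those of an actin can part. The brightest of 6 read 20288.9 at E40, 19338.3 at E50 and 20178.0 at E60, within 1.05-fold in every pair. Another, whose suffix _s_at marks a match to more than 1 transcript, read 2060.9 at E40, 93.7 at E50 and 66.4 at E60. It was 22.0-fold lower over the first step and 31.0-fold lower over the whole span, where ACTC1 was also lower. Of the other 4, 2 were lower by over 2-fold over the whole span (2.21-fold and 2.29-fold), 1 was within the limit, and 1 was under the floor on every array. All 10 probe sets of the 6 genes carry the plain suffix _at, but actin genes share long stretches of sequence, and cross-hybridisation between them was not tested.

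**Figure D3:**
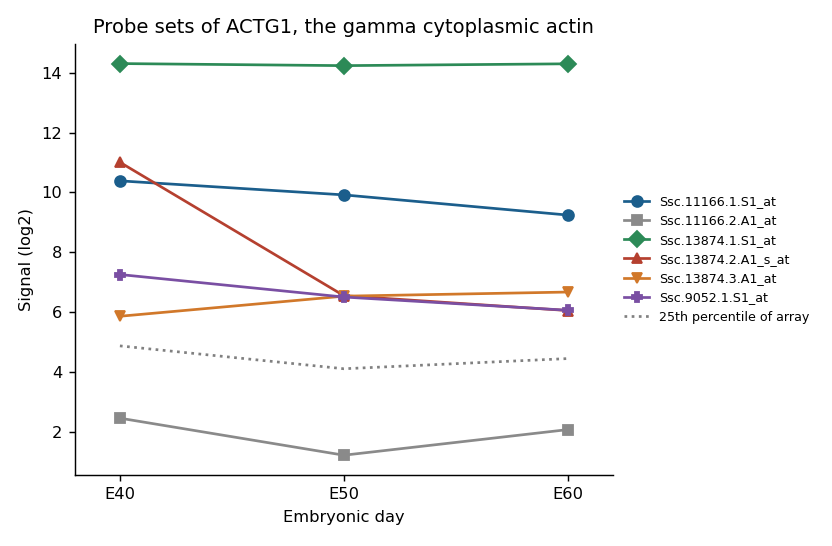
Log2 signal (vertical axis) of the 6 probe sets of ACTG1 by embryonic day (horizontal axis, 1 array for each of E40, E50 and E60), with the 25th percentile of each array dotted. The brightest line is level between 19338.3 and 20288.9 in signal, and the red one, whose probe set matches more than 1 transcript, drops at E50.

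Control probe sets along the actin transcript bear on RNA quality. The signal at the 3′ end was 4.95-fold that at the 5′ end at E40, 3.71-fold at E50 and 4.44-fold at E60. For GAPDH the ratio was 1.84, 1.36 and 1.63. Both ratios were lowest at E50, and their part in the values of the 6 genes was not tested. Of 13 housekeeping genes, 0 were called over the first step (median 0.02) and 0 over the whole span (median -0.07), and 1, the 14-3-3 protein YWHAZ, was lower over the second (2.24-fold, median of the list -0.05). At equal medians 1 housekeeping gene was higher over the first step. The shares of all named genes were 2.5% higher and 7.3% lower over the first step, and 3.99% and 1.6% over the second. Over the whole span they were 4.07% and 6.61%.

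Most named genes of filament assembly were not called past 2-fold, and neither were most of all named genes. That list holds monomer-binding, nucleating, capping and recycling proteins, and 39 of its 67 genes were named. Over the first step 0 of 39 were higher and 4 lower (median 0.15). Among all named genes, 2.5% were higher and 7.3% lower over this step. Those shares were 3.99% and 1.6% over the second step and 4.07% and 6.61% over the whole span. LMOD3, a filament nucleator of skeletal muscle, read 18.2 at E50, against 261.2 at E40 (14.4-fold lower). CAP2, a monomer-recycling protein of striated muscle, read 123.3 against 830.4 on the same days (6.73-fold), and TMOD1, which caps the slow end of sarcomere filaments, 130.1 against 493.1 (3.79-fold). SSH1, a phosphatase that activates cofilin, was at least 3.16-fold lower. The first 3 act in the sarcomere. CAP1 and TMOD3, forms of CAP2 and TMOD1 that most cells make, stayed within the limit, with 4065.1 at E40, 4744.8 at E50 and 4547.3 at E60 for CAP1 and 530.1, 769.7 and 688.3 for TMOD3. Cofilin, which severs filaments by another route than SCIN and GSN, stayed within it both in its general form CFL1 (10225.5, 11270.3 and 10713.0) and in its muscle form CFL2 (1309.0, 931.8 and 936.6). Over the second step 0 of 36 were higher and 1 lower, CORO1C, a coronin (at least 2.15-fold, median -0.01). Over the whole span 0 of 39 were higher and 6 lower, the 4 of the first step with CORO1C and WASF1, an activator of the Arp2/3 nucleator (2.31-fold, median 0.07). At equal medians and after quantile normalization alike, 2 were higher and 5 lower over the whole span. Over the first step 1 was higher under each, with 4 lower at equal medians and 3 after quantile normalization. SSH1, CAP1, TMOD3, CFL1, CFL2, CAPG and VIL1 are named after inspection of their values.

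In the list of crosslinking and anchoring proteins, 21 of 37 genes were named. Of all named genes, 2.5% were higher and 7.3% lower over the first step, and 3.99% and 1.6% over the second. Over the whole span the shares were 4.07% and 6.61%. Of the listed genes, 0 were higher and 2 lower over the first step (median 0.11). These were ACTN2, the alpha-actinin of the Z-disc (584.2 at E40, 39.4 at E50 and 40.8 at E60, 14.8-fold lower), and TAGLN3, a transgelin of neurons (116.0, 20.7 and 47.8, 5.60-fold lower). ACTN1, the alpha-actinin of non-muscle cells, chosen after its values were seen, read 4667.0, 5497.1 and 4707.5. Over the second step 2 of 21 were higher (LCP1, a bundling protein of white blood cells, 2.37-fold, and TAGLN3, 2.31-fold) and 0 lower (median 0.02). Both were dim at E50, with LCP1 at 26.6 and TAGLN3 at 20.7 against a floor of 17.2. The higher ones numbered 2 at equal medians, 0 after quantile normalization and 3 when scaled to housekeeping genes. Over the whole span 1 was higher, RDX, radixin, which ties filaments to the membrane (2.33-fold), and 2 were lower, ACTN2 and TAGLN3 again (median 0.00). At equal medians 3 were higher and 1 lower over the whole span, and after quantile normalization 2 and 1. Of the other actins and actin-related proteins, 4 of 7 were named. None was called in any pair by its brightest probe set, with medians of 0.22, -0.09 and 0.04. At equal medians 1 was higher over the first step.

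**Figure D4:**
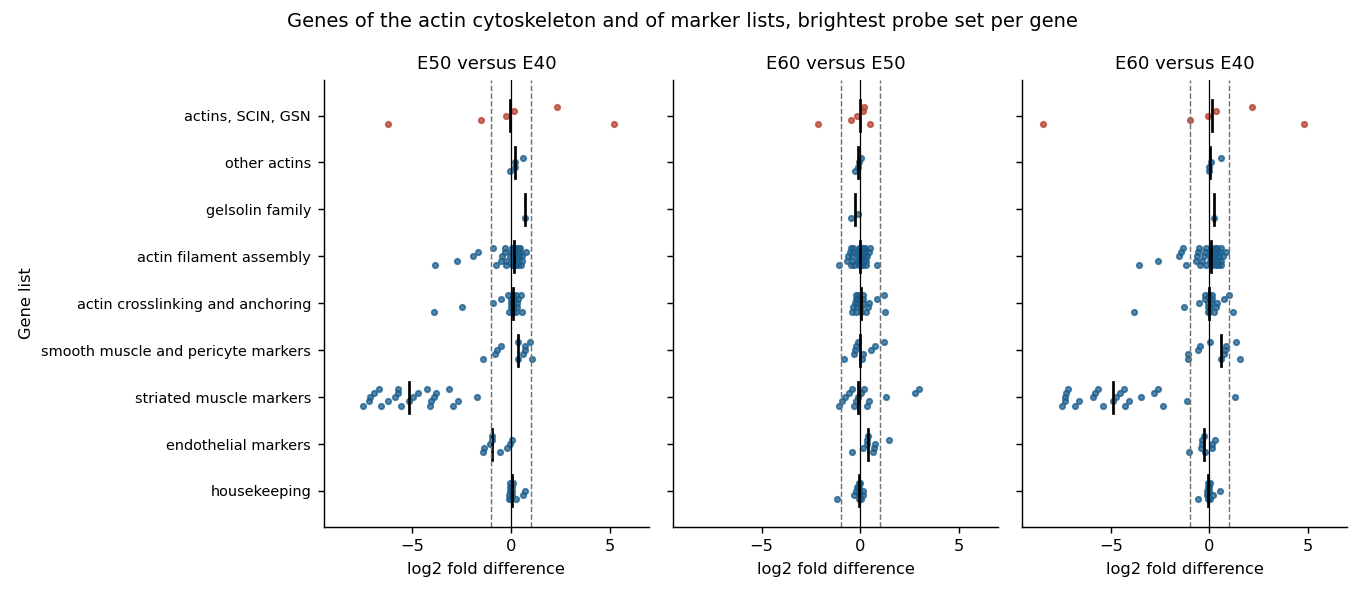
Log2 fold difference (horizontal axis) of the genes (points, brightest probe set each) of 9 lists (rows) in the 3 pairs of days (panels), with the list median as a black bar and 2-fold as dashed lines. In the first panel striated muscle lies at a median of -5.19, the assembly and crosslinking lists have medians of 0.15 and 0.11, and the 6 actin and severing genes (red) spread to both sides.

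The remaining marker lists describe the tissue around these genes. Among all named genes 2.5% were higher and 7.3% lower over the first step, and 3.99% and 1.6% over the second. Over the first step 2 of 8 odontoblast and dental mesenchyme genes were higher (ALPL and DSPP) and 4 lower (IBSP, BGLAP, COL1A2 and MSX1), with a median of -0.90 (DSPP and MSX1 were chosen after their values were seen). The lower ones numbered 1 at equal medians, 2 after quantile normalization and 4 when scaled to housekeeping genes. Over the second step 4 of 9 were higher and 0 lower (median 0.95). Among 6 macrophage and osteoclast genes, 0 were higher and 1 lower over the first step (TYROBP, at least 5.85-fold, median -0.06). TYROBP read 100.7 at E40, 8.5 at E50, under the floor, and 103.5 at E60, at least 6.01-fold higher over the second step. None of 4 erythroid genes was called over the first step (median -0.24).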

How the data were processed

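RNA of 1 pool of molar germs for each of E40, E50 and E60 was labelled and hybridised to a porcine 3′ expression array. The authors computed MAS 5.0 signals, scaled every array to an equal mean signal (500.1 here, with the brightest and dimmest 2% left out) and deposited them as log2 values, which were used as given. A difference in scale between arrays would move the signals of all members together, and one in RNA quality would move them unequally, by where the probes lie along the transcript. Of 24123 probe sets, 124 controls were left out. Symbols came from the platform annotation, in which 10069 probe sets have 1 symbol, 198 several and 13732 none. By gene ID, 9961 of the first matched a RefSeq gene table (Sscrofa11.1 assembly) and 0 changed. The median signal was 163.5 (E40), 125.0 (E50) and 132.0 (E60), and the number of arrays limits the precision.

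Floors at the 25th percentile, 2-fold calls, the brightest probe set (highest mean log2 signal) per gene, and 14 gene lists were used. Pairs with both signals under the floor have no fold. Every member probe set is described. From a list, up to 4 genes with the largest change past 2-fold and both signals above the floor are named, or the only gene to move in its direction. For each member spanning at least 2 log2 units, the 3 nearest profiles are named. Members and lists were chosen with earlier results of these data known. The code for the calls was run on simulated data, with changes well past the threshold added to bright probe sets only. That check cannot show how dim or borderline calls behave. Alternatives were 3 scalings, 4 floors, 2 thresholds, probe sets with the plain suffix and the mean over probe sets. The detection calls of the study were not used here. Python 3.11.15 and pandas 2.3.3 were used.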

Additional observations from a re-analysis of the deposited data

How the results depend on the processing

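Each count of called members was recomputed under 9 alternatives that could change it, and 47 of 54 counts stayed within 1.5-fold. Leaving out probe sets with other suffixes could not, as the members have none. On E60 versus E50 the 1 higher probe set became 0 after quantile normalization, with a floor at the 50th percentile and at a 3-fold threshold, and the 1 lower became 0 with the floor at the 50th percentile and 2 at a 1.5-fold threshold. On E60 versus E40 the 2 lower became 1 at equal medians and 1 at a 3-fold threshold. Of 144 recomputed log2 differences of the genes, 135 stayed within 1.5-fold, and 0 of those called changed sign. The mean over both probe sets gave ACTG2 1.57 and GSN -1.04 on E50 versus E40. With the floor at the 50th percentile SCIN stood at 3.46 there. Of 840 list counts, 144 moved by over 1.5-fold. Equal medians moved the median of all probe sets on E50 versus E40 to 0.27, against -0.11 as deposited, and the calls to 1455 higher and 1808 lower, against 477 and 2862, and quantile normalization gave 1209 and 1636. On E60 versus E50 it gave 745 and 508, against 1184 and 349, and scaling to housekeeping genes 1655 and 218. On E60 versus E40 equal medians gave 1628 and 1467 and quantile normalization 1477 and 1631, against 840 and 2343. No paired analysis was possible because each day has 1 array. Dim signals limit the second step of ACTC1 and the first of SCIN. Other causes were not tested.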
